A study of Mus musculus with 21 samples.

Results

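Neutrophil primary granule genes were followed in sorted mouse bone marrow progenitors with and without Dot1l, the gene of the methyltransferase that acts on a lysine in the core of histone H3. The set holds 9 genes, taken as a fixed list of names and not by their measured levels: Mpo, Elane, Prtn3, Ctsg, Ms4a3, Cst7, Nkg7, Hp and Serpinb1a. They are 9 of 18194 genes measured, and 10 of the 45101 probe sets on the array are annotated to them alone. Each gene had 1 probe set except Serpinb1a, which had 2 and is given by the brighter one. Levels are the log2 of the deposited array intensities, and a level of one gene cannot be set against that of another.

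Primary, or azurophil, granules are the first granules a neutrophil makes, at the promyelocyte stage, and they carry enzymes that kill and digest microbes. Their cargo genes are transcribed in granulocyte-macrophage progenitors (GMP) and are shut off again before the late granules form. Mpo encodes myeloperoxidase, which makes hypochlorous acid, and Elane, Prtn3 and Ctsg encode the serine proteases neutrophil elastase, proteinase 3 and cathepsin G. Of the other genes, Ms4a3 encodes a membrane protein of granulocyte progenitors, Nkg7 a granule membrane protein also found in cytotoxic lymphocytes, Cst7 the cysteine protease inhibitor cystatin F, and Serpinb1a a cytosolic inhibitor of the neutrophil serine proteases. Hp encodes haptoglobin, which binds free haemoglobin and in human neutrophils is stored in late granules, so the name of the set describes its enzymes better than all of its members.

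There were 4 groups, on 21 arrays. Group GMP-Dot held 4 arrays of GMP from mice with floxed Dot1l alleles (Dot1l fl/fl), labelled Dot1l -/- after injection of PIPC, an RNA mimic that induces interferon. Group GMP-Control held 5 arrays of GMP from mice with wild-type alleles (Dot1 wt/wt). Group LSK-Dot held 6 arrays and group LSK-Control 6 arrays of LSK cells, sorted as lacking lineage markers and carrying Sca-1 and Kit, the fraction with stem and multipotent cells, from mice of these same genotypes. The design text describes the injection for both genotypes, with deletion in the floxed mice alone. All mice carried Mx-Cre, whose interferon-driven Mx1 promoter is active in several tissues besides blood, and the background was labelled C57/BL6. The animals' age and the interval after injection were not among the labels, nor was it stated whether arrays came from separate animals. The p-values therefore measure only the spread between these arrays, which are named here by the K number in their titles.

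The deleted gene itself did not separate the groups. Its probe set averaged 6.22 ± 0.42 on the log2 scale in GMP-Dot (SD, n = 4) and 6.74 ± 0.16 (n = 5) in GMP-Control, and 6.38 ± 0.35 (n = 6) in LSK-Dot and 6.48 ± 0.30 (n = 6) in LSK-Control, with adjusted p of 0.340 in GMP and 0.985 in LSK cells. Whether that probe set lies in the deleted part is not given, so this does not check the genotypes. The sorted types differed at their markers: in control cells the Fc receptor gene Fcgr3 was higher in GMP by 2.86 ± 0.42 (SE) on the log2 scale, and the stem cell gene Hlf had a log2 fold change of -6.01 ± 0.80. Within LSK-Dot, array K1272 stood apart. Its mean Spearman correlation with its own group over all probe sets was 0.684, against 0.811 to 0.943 for the other 20 arrays. Array K1359 of the same group had 0.855 and a low level of most of the 9 genes, and results that rest on these arrays are given with and without them.

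The starts of 4 of these genes are shown because the products are the peroxidase and the proteases of one granule, and because 3 of them had the smallest p of the set after Dot1l loss in LSK cells. Each runs 5′ to 3′ from 250 bases before to 50 bases after the annotated start, from RefSeq on GRCm38.p6, and capitals mark matches on either strand to motifs of PU.1 (GAGGAA), MYB (AACNG) and RUNX (TGTGGT), regulators of granule genes.
Mpo, chr11:87793534-87793833, plus strand: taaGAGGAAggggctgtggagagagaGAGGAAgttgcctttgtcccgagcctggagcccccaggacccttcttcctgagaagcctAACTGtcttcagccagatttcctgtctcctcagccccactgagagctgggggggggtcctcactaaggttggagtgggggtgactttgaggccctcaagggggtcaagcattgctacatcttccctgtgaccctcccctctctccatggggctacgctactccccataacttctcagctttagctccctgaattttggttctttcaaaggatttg
Elane, chr10:79886062-79886361, plus strand: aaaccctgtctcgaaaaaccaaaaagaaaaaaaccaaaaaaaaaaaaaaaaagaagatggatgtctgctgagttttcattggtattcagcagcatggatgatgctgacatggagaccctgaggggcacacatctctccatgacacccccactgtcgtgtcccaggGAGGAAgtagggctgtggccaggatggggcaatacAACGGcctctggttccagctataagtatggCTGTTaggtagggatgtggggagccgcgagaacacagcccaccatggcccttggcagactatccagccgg
Prtn3, chr10:79879417-79879716, plus strand: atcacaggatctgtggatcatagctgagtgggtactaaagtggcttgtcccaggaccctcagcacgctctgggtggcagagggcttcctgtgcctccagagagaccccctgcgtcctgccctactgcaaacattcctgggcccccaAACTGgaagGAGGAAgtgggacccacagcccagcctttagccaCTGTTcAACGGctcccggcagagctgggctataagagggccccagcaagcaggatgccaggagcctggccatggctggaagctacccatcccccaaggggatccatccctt
Ctsg, chr14:56102525-56102824, minus strand: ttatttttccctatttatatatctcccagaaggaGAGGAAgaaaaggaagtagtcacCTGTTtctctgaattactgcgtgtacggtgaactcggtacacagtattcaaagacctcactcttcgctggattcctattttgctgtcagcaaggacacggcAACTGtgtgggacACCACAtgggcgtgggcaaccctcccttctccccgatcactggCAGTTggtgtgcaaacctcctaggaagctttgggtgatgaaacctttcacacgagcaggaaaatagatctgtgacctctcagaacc
Prtn3 and Elane are neighbours on chromosome 10, and each holds 1 PU.1 match, at position -85 of Elane and -95 of Prtn3 counted from the start, with MYB matches between it and the start. Promoters were matched for 7 of the 9 genes, all but Hp and Serpinb1a. A PU.1 match was in 5 of these 7, against 28.3% of all 32851 promoter windows of this length. A MYB match was in 6 of 7, against 80.3% of all windows, and a RUNX match in 3 of 7, against 16.8%. The C/EBP motif TTNCNNAA was in 2 of 7, Ms4a3 and Cst7, against 40.7% of all windows. In the 4 promoters shown, no match of one motif overlapped that of another.

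In control mice, 8 of the 9 genes were higher in GMP than in LSK cells, and none of these 8 overlapped between the groups. Of all genes, 7.03% passed the test as higher and 4.95% as lower in this comparison, and 11.3% were higher without overlap. The median log2 fold change of the 9 genes was 3.35, against 0.29 over all genes. Ms4a3 averaged 11.34 ± 0.21 (SD, n = 5) in GMP-Control and 6.58 ± 0.46 (n = 6) in LSK-Control, a log2 fold change of 4.76 ± 0.71 (SE) or 27.1-fold. Prtn3 averaged 12.30 ± 0.64 in GMP-Control and 7.79 ± 0.87 in LSK-Control, which is 22.8-fold. Cst7 averaged 10.78 ± 0.36 in GMP-Control and 6.38 ± 0.31 in LSK-Control, which is 21.04-fold. The other proteases rose as well: Elane was 12.0-fold and Ctsg 10.2-fold higher in GMP. Hp was 8.77-fold and Nkg7 7.45-fold higher.

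Mpo had the smallest fold of the 8, at 2.34, with 13.79 ± 0.18 (SD, n = 5) in GMP-Control and 12.56 ± 0.18 (n = 6) in LSK-Control. Its probe set was thus bright on every LSK array, with a lowest value of 12.23 in LSK-Control. The inhibitor gene Serpinb1a did not pass, with 9.49 ± 0.62 in GMP-Control, 9.01 ± 0.70 in LSK-Control and an adjusted p of 0.437. The adjusted p of the 8 called genes lay between 0.000125 for Cst7 and 0.00158 for Hp (limma, over all genes). All 8 remained called under every alternative setting tried, listed in the closing section.

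**Figure D1:**
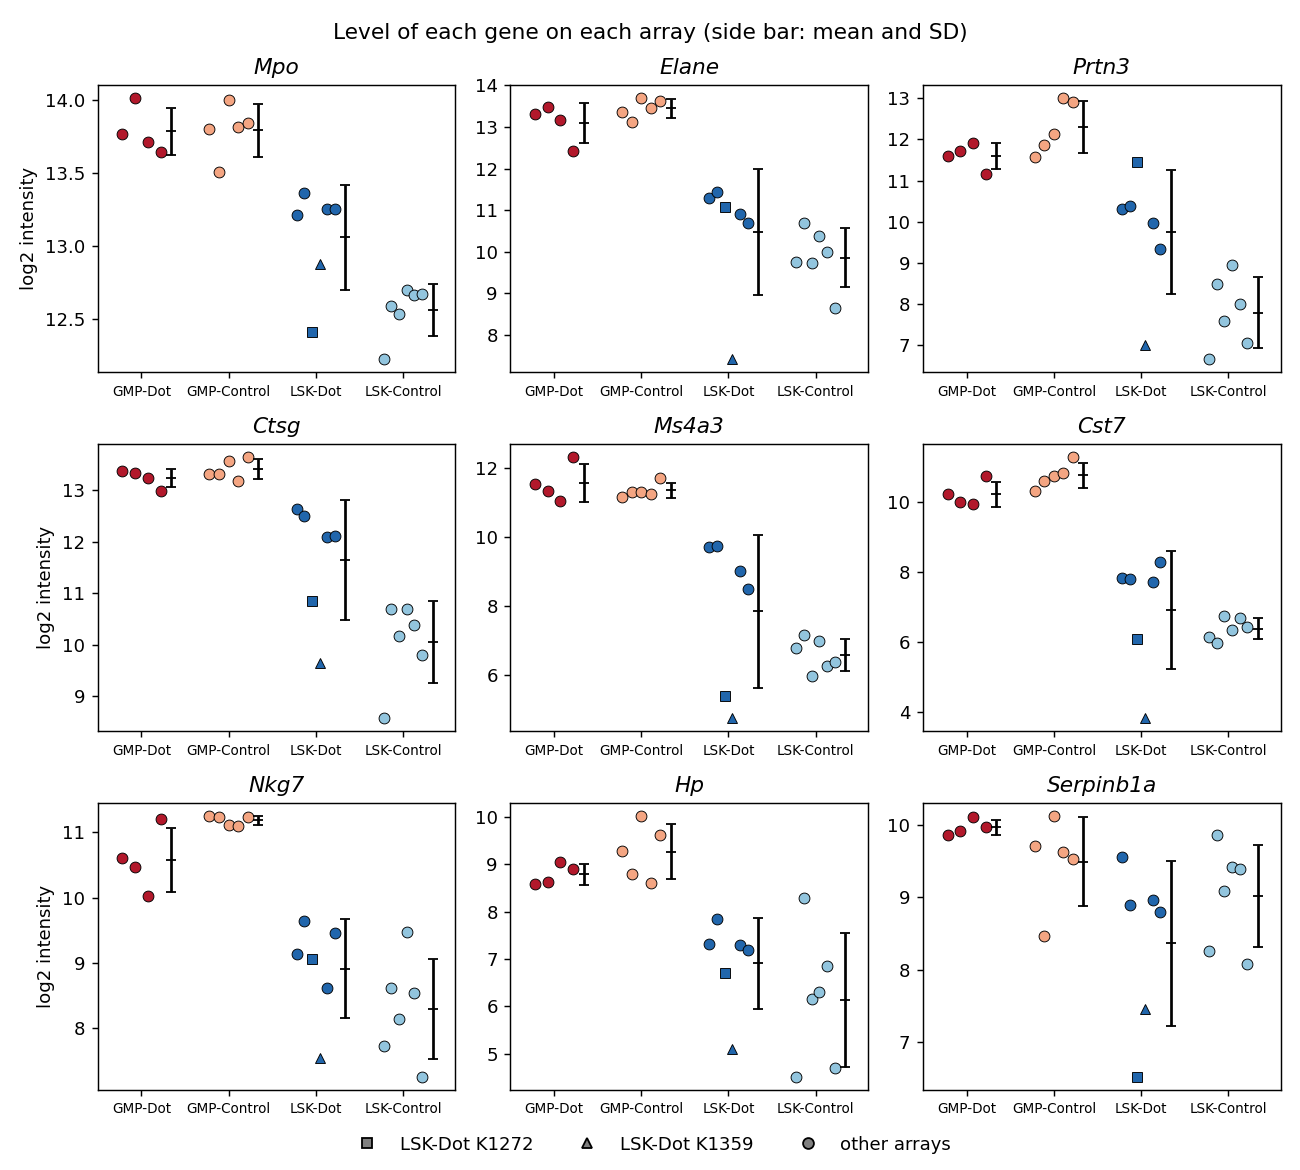
Log2 intensity (y axis) of each of the 9 genes on each of the 21 arrays, by group, with the group mean and SD as a bar beside the points. In the panels of Mpo, Elane, Prtn3, Ctsg, Ms4a3 and Cst7, the LSK-Dot arrays K1091, K1190, K1421 and K1422 sit between the LSK-Control arrays and the GMP arrays, as do K1272 (square) for Elane and Ctsg and K1359 (triangle) for Mpo, and the GMP groups overlap.

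In LSK cells without Dot1l, the granule enzyme genes had higher means than in controls, but 0 of the 9 genes passed. With limma, 0% of the 18194 genes did in this comparison, and 0.187% were higher without overlap between the groups, as were 0 of the 9. At an unadjusted p under 0.05 there were 3 of the 9 genes, Ctsg, Prtn3 and Mpo, and 1021 of all genes. The log2 fold change was positive for 8 of the 9 genes and for 58.4% of all genes, with medians of 0.62 for the 9 genes and 0.06 for all. Without LSK-Dot K1359 these medians were 1.16 and 0.09, and without K1272 they were 0.71 and -0.03. In such sorted pools, more cells that carry a transcript and more transcript per cell cannot be told apart.

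Prtn3 had the largest difference. Its lowest, median and highest levels were 7.0003, 10.15 and 11.44 in LSK-Dot, against 6.66, 7.79 and 8.96 in LSK-Control. On 5 of the 6 LSK-Dot arrays it lay above every control, and K1359 lay inside the control range. The log2 fold change was 1.95 ± 0.54 (SE), or 3.88-fold, with an unadjusted p of 0.00181 and an adjusted p of 0.375. Ctsg followed, with 9.65, 12.11 and 12.63 in LSK-Dot, against 8.58, 10.28 and 10.71 in LSK-Control. Again 5 of 6 LSK-Dot arrays lay above every control and K1359 was the exception. The log2 fold change of Ctsg was 1.59 ± 0.43, or 3.003-fold, with an unadjusted p of 0.00139 and an adjusted p of 0.322. Without K1359 both genes passed, Prtn3 at 2.50 ± 0.41 with an adjusted p of 0.022 and Ctsg at 1.99 ± 0.35 with 0.0256, and 33 of all genes were then called. Without K1272 neither passed, with adjusted p of 0.521 for Prtn3 and 0.245 for Ctsg.

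Mpo had 12.41, 13.23 and 13.36 in LSK-Dot, against 12.23, 12.63 and 12.70 in LSK-Control. The difference was small but 5 of 6 LSK-Dot arrays lay above every control, K1272 being the one inside their range. The log2 fold change was 0.50 ± 0.17 (SE), or 1.41-fold, with an adjusted p of 0.642, and 0.63 ± 0.14 with an adjusted p of 0.149 without K1272. Elane, the partner of Prtn3 on chromosome 10, had 7.42, 10.99 and 11.44 in LSK-Dot, against 8.63, 9.87 and 10.68 in LSK-Control. Its spread in LSK-Dot came largely from 1 array: K1359 lay below every control and the other 5 above every control, the lowest of them at 10.69. The log2 fold change was 0.61 ± 0.51 with all arrays and 1.23 ± 0.30 without K1359, with adjusted p of 0.985 and 0.107.

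The membrane protein gene Ms4a3 split the LSK-Dot arrays. It had 4.75, 8.74 and 9.74 in LSK-Dot, against 5.96, 6.57 and 7.15 in LSK-Control. K1091, K1190, K1421 and K1422 lay between 8.48 and 9.74, above every control, and K1272 and K1359 lay at 5.37 and 4.75, below every control. The log2 fold change was 1.26 ± 0.68 (SE) with all arrays, 1.88 ± 0.55 without K1359 and 1.75 ± 0.62 without K1272, and it did not pass in any of the 3 fits. Cst7 showed the same split for K1359, at 3.82, while K1272, at 6.07, lay inside the control range of 5.96 to 6.74. The other 4 arrays had Cst7 levels from 7.71 to 8.28. Its log2 fold change was 0.54 ± 0.53, and 1.16 ± 0.31 without K1359.

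The remaining genes overlapped widely between LSK-Dot and LSK-Control. Nkg7 had 7.54, 9.10 and 9.64 in LSK-Dot, against 7.25, 8.34 and 9.48 in LSK-Control, and only K1190 exceeded every control. Hp had 5.10, 7.24 and 7.84 in LSK-Dot, against 4.51, 6.22 and 8.29 in LSK-Control, with all 6 arrays inside the control range. Their log2 fold changes were 0.62 ± 0.35 (SE) and 0.77 ± 0.53, and 0.89 ± 0.32 and 1.13 ± 0.50 without K1359, none past the test. Serpinb1a, the inhibitor, was the one gene with a negative value, at -0.65 ± 0.43, with 6.53, 8.85 and 9.56 in LSK-Dot, against 8.08, 9.24 and 9.85 in LSK-Control. Without K1272, its lowest array, the value was -0.28 ± 0.37. The direction depended on the probe set: the dimmer one had 0.54 ± 0.61, so no direction can be given for Serpinb1a.

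In GMP, loss of Dot1l moved none of the 9 genes past the test, and 0.143% of all genes were called there, 0.0824% higher and 0.0605% lower. Of all genes, 1.81% were higher and 2.97% lower without overlap, and of the 9 genes 0 were. At an unadjusted p under 0.05 there were 0 of the 9 genes and 2537 of all genes. The median log2 fold change was -0.35 for the 9 genes and -0.20 for all genes, and without GMP-Dot K1421 it was -0.13 and -0.25. Without GMP-Control K1601 these medians were -0.44 and -0.20, and without GMP-Control K1603 they were -0.35 and -0.17. Mpo had 13.77, 14.01, 13.71 and 13.65 in GMP-Dot, against 13.50, 13.999, 13.81, 13.84 and 13.80 in GMP-Control. These values interleaved, and the log2 fold change of -0.01 had a 95% confidence interval from -0.43 to 0.42. Ctsg had 13.37, 13.34, 13.23 and 12.99 in GMP-Dot, against 13.32, 13.58, 13.19, 13.65 and 13.32 in GMP-Control. Here only K1421 of the GMP-Dot arrays lay below every control, and the log2 fold change was -0.18 with an interval from -1.21 to 0.86.

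Elane and Prtn3 also had their lowest GMP value on GMP-Dot K1421, at 12.41 and 11.16. Elane had 13.30, 13.49 and 13.16 on the other GMP-Dot arrays, against 13.12 to 13.70 in GMP-Control. Prtn3 had 11.59, 11.72 and 11.92 on them, against 11.58 to 13.01 in GMP-Control. The log2 fold changes were -0.35 for Elane (95% confidence interval -1.59 to 0.88) and -0.70 for Prtn3 (-2.02 to 0.61). On the same array Ms4a3 had its highest value of all 21 arrays, 12.32, so K1421 was not low for the whole set. Ms4a3 averaged 11.55 ± 0.55 (SD, n = 4) in GMP-Dot and 11.34 ± 0.21 (n = 5) in GMP-Control.

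The genes with most GMP-Dot arrays outside the control range were Nkg7 and Cst7. Nkg7 had 10.60, 10.46, 10.02 and 11.21 in GMP-Dot, against 11.24, 11.12, 11.11, 11.23 and 11.25 in GMP-Control. The controls lay within a narrow band and 3 of 4 GMP-Dot arrays lay below it, with a log2 fold change of -0.62 ± 0.41 (SE) and an adjusted p of 0.466. Cst7 had 10.23, 10.01, 9.95 and 10.75 in GMP-Dot, against 10.61, 10.76, 10.85, 11.31 and 10.34 in GMP-Control. Again 3 of 4 lay below every control, with a log2 fold change of -0.54 ± 0.61. Hp had -0.48 ± 0.61 and Serpinb1a 0.47 ± 0.50, with adjusted p of 0.688 and 0.634. GMP-Dot arrays K1190 and K1272 were the first and second of each set of 4 values and lay close together for most of the 9 genes.

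**Figure D2:**
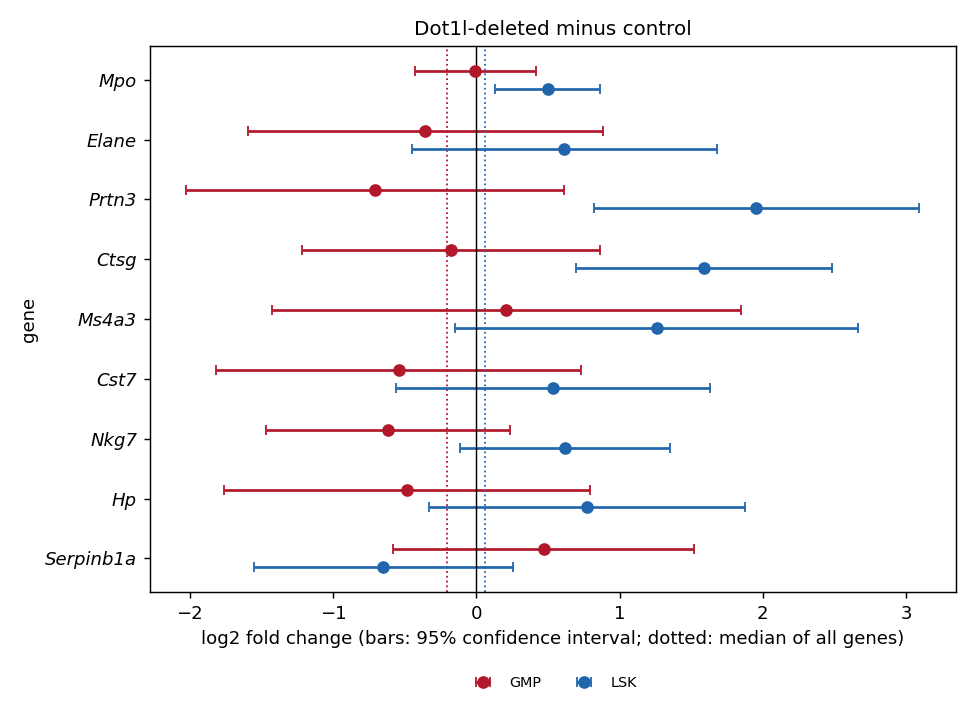
Log2 fold change of Dot1l-deleted over control cells (x axis) for each gene, in GMP (upper point of each pair) and LSK (lower point), with 95% confidence intervals and the median of all genes as dotted lines. The LSK intervals of Mpo, Prtn3 and Ctsg lie above 0, and every GMP interval spans 0.

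The effect of deletion was then compared between the cell types, as the GMP effect minus the LSK effect. No gene of the set passed this test, in which 0.033% of all genes were called, 0.0165% positive and 0.0165% negative. The difference was negative for 8 of 9 genes, with a median of -1.08 for the set and -0.26 for all genes. Without LSK-Dot K1359 these medians were -1.61 and -0.28, and without K1272 they were -1.25 and -0.18. For Prtn3 the difference was -2.66 ± 0.83 (SE), for Ctsg -1.76 ± 0.66 and for Nkg7 -1.23 ± 0.54, with adjusted p of 0.242, 0.300 and 0.342. Without LSK-Dot K1359, Prtn3 passed at -3.21 with an adjusted p of 0.0454, and 21 of all genes did.

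The same values can be read as the step in level between GMP and LSK cells, which in the deleted cells had a median of 1.85 over the 9 genes, against 3.35 in controls. Without LSK-Dot K1359 the median in deleted cells was 1.42, and without K1272 it was 1.84. The steps in deleted and in control cells share no arrays, and their contrast is the difference tested above, so they add no further evidence. After deletion only Cst7 passed as higher in GMP, at 3.32 ± 0.59 (SE) with an adjusted p of 0.0261, where 0.0495% of all genes were called higher and 0.0934% lower. It had 10.24 ± 0.36 (SD, n = 4) in GMP-Dot and 6.92 ± 1.70 (n = 6) in LSK-Dot. This call was lost without GMP-Dot K1190 or K1272, with adjusted p of 0.115 and 0.0807, and with the K number of the titles as a block, with 0.0848. Ms4a3 had 3.71 ± 0.75 and Elane 2.62 ± 0.57, with adjusted p of 0.0556 and 0.077. Each gene except Prtn3 was higher on all GMP-Dot than on all LSK-Dot arrays, where 1.1% of all genes were. For Serpinb1a this held for the brighter probe set only. The dimmer one overlapped, with a lowest level of 8.86 in GMP-Dot and a highest of 8.98 in LSK-Dot, and a log2 fold change of 0.96 ± 0.68 (SE). Prtn3 overlapped through LSK-Dot K1272, whose 11.44 exceeded the 11.16 of GMP-Dot K1421.

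Ms4a3 passed as a second gene without LSK-Dot K1091 or K1190 or without GMP-Dot K1359, and Elane without GMP-Dot K1421 or, again beside Cst7, without LSK-Dot K1359. Without LSK-Dot K1272 all 3 genes passed. The number called in this comparison thus ran from 0 to 3 with single arrays left out.

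**Figure D3:**
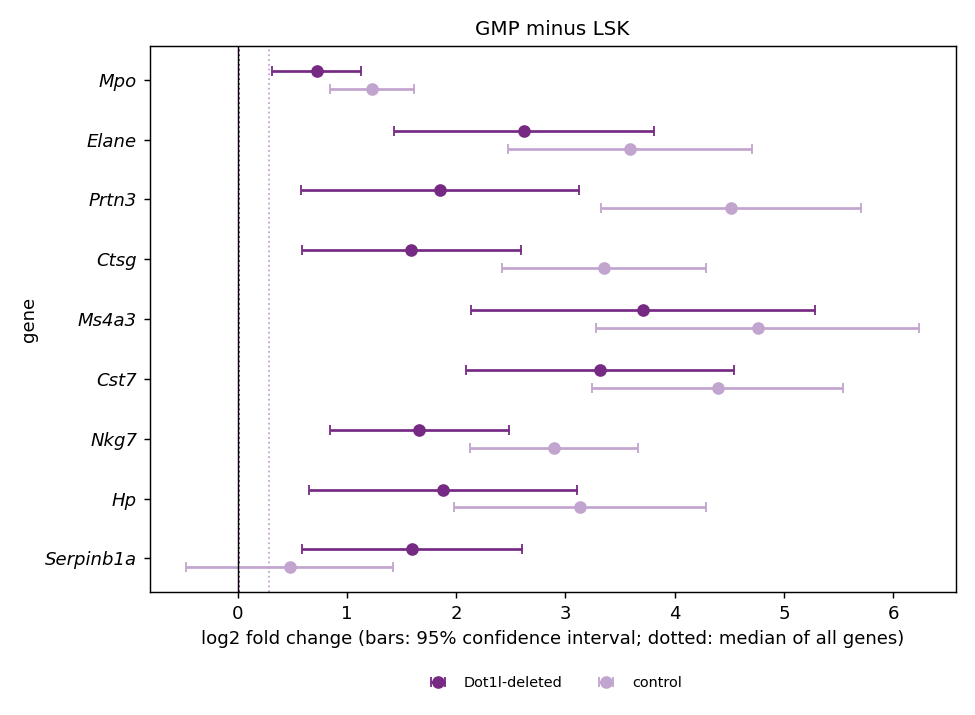
Log2 fold change of GMP over LSK cells (x axis) for each gene in Dot1l-deleted cells (upper point of each pair) and control cells (lower point), with 95% confidence intervals and the median of all genes as dotted lines. The point is lower in deleted than in control cells for every gene except Serpinb1a, with overlapping intervals for all but Prtn3.

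The 9 genes varied together between arrays of one group. As deviations from the 4 group means, their 36 pairs had Pearson correlations from 0.08 to 0.84 with a median of 0.63 over 21 arrays. Array K1359 carried much of this. Without K1272 the median was 0.70, and without both it was 0.46 over 19 arrays, with 31 of 36 pairs above 0. All 9 genes are read from the same arrays, so a shift of a whole array enters every pair. Over 21 arrays Ctsg followed the mean of the other 8 genes most closely, at 0.92, and Mpo least, at 0.56. These correlations of Ctsg and Mpo were not computed with K1272 or K1359 left out. The lowest pair, Mpo with Prtn3 at 0.08, had 0.64 without K1272 and 0.47 without both arrays, so the low values of Mpo rest in part on K1272.

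By the mean level of the 9 genes, the LSK-Dot arrays had 10.11 on K1091, 10.18 on K1190, 8.83 on K1272, 7.29 on K1359, 9.76 on K1421 and 9.73 on K1422. The LSK-Control arrays had 8.46, 9.03, 8.75, 7.88, 9.15 and 7.85. Thus 4 LSK-Dot arrays lay above every control, K1272 inside the control range and K1359 below it. The GMP-Dot arrays had 11.35 to 11.48, against 11.36 to 11.94 in GMP-Control.

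The genes whose deviations followed the mean of the set most closely, among genes brighter than the median gene, were Manf, Uxt, Mrpl41, Fbl, Atp5g3 and Hdc. Manf encodes a protein of the endoplasmic reticulum stress response and Fbl a nucleolar methyltransferase, Mrpl41 and Atp5g3 encode mitochondrial proteins, and Hdc makes histamine. Their correlations over 21 arrays lay between 0.87 and 0.93. Manf also ranked first without LSK-Dot K1272, at 0.95, while Uxt then ranked 4th, Atp5g3 7th, Mrpl41 8th, Fbl 12th and Hdc 26th. The ranking was not made without LSK-Dot K1359, so how far these correlations rest on that array was not tested. In control cells Hdc was higher in GMP by 4.04 ± 0.67 (SE), Manf by 1.60 ± 0.41 and Atp5g3 by 1.10 ± 0.26, all past the test, and none of the 6 passed after deletion in either cell type.

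Next to the proteases on the chromosome, the genes did not share one pattern. Plppr3, the measured neighbour of Prtn3 on the side away from Elane, had a log2 fold change of 1.003 ± 0.34 (SE) after deletion in LSK and -1.36 ± 0.39 in GMP, with adjusted p of 0.632 and 0.175. Med16, a Mediator subunit gene on the other side of Elane, had 0.35 ± 0.56 and -0.58 ± 0.65. Beside Ctsg on chromosome 14, the basophil protease gene Mcpt8 had 1.40 ± 0.56 in LSK and 0.39 ± 0.65 in GMP, and the granzyme gene Gzme had 0.04 ± 0.18 and 0.00009 ± 0.20. Of these 4 neighbours, Plppr3 alone was higher in control GMP than in control LSK past the test, at 1.32 ± 0.35.

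Other genes of the granule pathway did not pass after deletion in either cell type. Among 9 measured genes of granule cargo, sorting and processing, 1 was higher and 1 lower in control GMP than in control LSK cells. They were Calr, a chaperone of the myeloperoxidase precursor, at 0.59 ± 0.18 (SE), and the vesicle adaptor gene Ap3b1 at -2.56 ± 0.65. The median of the list after deletion was -0.53 in LSK and 0.27 in GMP. Ctsc, whose product activates the granule serine proteases, had 0.61 ± 0.26 in LSK and 0.82 ± 0.30 in GMP, with adjusted p of 0.792 and 0.255. Ap3b1 had 3.38 ± 0.72 in GMP, with an adjusted p of 0.0738.

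Of 11 acid hydrolase genes, 2 were higher in control GMP, Ctsz at 1.94 ± 0.38 (SE) and Gla at 2.26 ± 0.62, and 0 passed after deletion, where the list medians were -0.32 in LSK and -0.30 in GMP. Of 7 other protease inhibitor genes, 3 were higher in control GMP and 1 lower. Slpi, which inhibits elastase and cathepsin G, had 3.51 ± 0.57, Cstb 1.58 ± 0.32, Serpina3n 1.06 ± 0.28 and Serpinb6b -1.93 ± 0.50. After deletion Slpi had 1.21 ± 0.54 in LSK and -0.58 ± 0.63 in GMP, neither past the test.

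Among 8 measured regulators of the granule genes, Cebpa, which is required to form GMP, was higher in control GMP by 3.27 ± 0.56 (SE), and Cbfb, the partner of RUNX proteins, had -0.71 ± 0.22, both past the test. After deletion 0 of 8 passed in LSK or in GMP. Cebpa had 1.71 ± 0.53 in LSK and -1.20 ± 0.61 in GMP, with adjusted p of 0.515 and 0.378. Gfi1, a repressor needed for neutrophil formation, had -1.62 ± 0.59 in LSK, and Cbfb 0.55 ± 0.25 in GMP. The list medians were -0.15 in LSK and -0.09 in GMP.

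The late granule genes, which follow the primary ones in neutrophil maturation, had lower means in LSK-Dot than in LSK-Control. All 14 measured genes had a negative log2 fold change there, with a median of -2.03, against 41.6% of all genes and a median of 0.06. None of the 14 passed, and 9 of 14 had an unadjusted p under 0.05, as did 1021 of the 18194 genes. Without LSK-Dot K1359, 13 of 14 were negative with a median of -1.59, and without LSK-Control K1581, 13 of 14 with a median of -1.53. The lowest adjusted p among them was 0.0879. The mean level of the 14 genes lay between 5.76 and 7.15 in LSK-Dot, against 7.09 and 10.86 in LSK-Control, and 5 of 6 LSK-Dot arrays lay below every control. In GMP it lay between 6.501 and 7.13 in GMP-Dot, against 7.31 and 7.79 in GMP-Control, with no overlap. The 4 LSK-Dot arrays with the highest primary granule means, from 9.73 to 10.18, had late granule means of 6.49 to 7.15. LSK-Control K1581, with the highest primary mean of its group, 9.15, also had the highest late mean, 10.86. LSK-Dot K1359 was the lowest array for both lists.

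**Figure D4:**
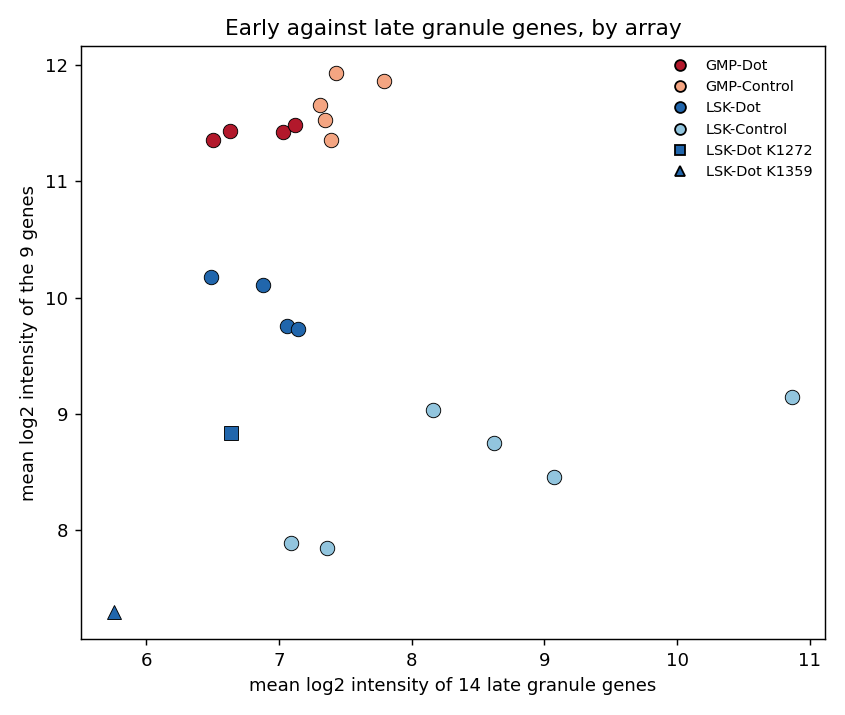
Mean log2 intensity of the 9 genes (y axis) against that of 14 late granule genes (x axis) on each of the 21 arrays, coloured by group. Of the LSK-Dot arrays, 4 lie above all LSK-Control arrays on the y axis and at or left of the lower LSK-Control arrays on the x axis, while K1272 and K1359 lie lower.

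Markers of other cells were set beside these genes. After deletion in LSK, 0 of 8 monocyte, 0 of 6 stem cell and 0 of 8 eosinophil, basophil and mast cell markers passed the test. The signs were mixed for the monocyte markers, 5 of 8 positive, and all 6 stem cell markers were negative. The mean of 8 monocyte markers was 8.48 to 8.55 on the LSK-Dot arrays K1091, K1190, K1421 and K1422, and 5.12 on K1272 and 6.02 on K1359, against 6.46 to 8.36 in LSK-Control. The arrays high for the primary granule genes were thus also the 4 highest for monocyte markers, and the part of this in the result was not tested. The mean of 6 stem cell markers was 4.99 to 8.25 in LSK-Dot, against 7.81 to 8.32 in LSK-Control. Here 5 of 6 LSK-Dot arrays lay below every LSK control, and K1359, at 8.25, lay inside their range. The lowest, K1272 at 4.99, lay within the GMP-Control range of 4.42 to 5.12. The mean of 5 sort marker genes was also low on K1272, at 5.96, against 8.11 to 8.89 in LSK-Control. The mean of 8 eosinophil, basophil and mast cell markers was 5.37 to 5.98 in LSK-Dot, against 5.02 to 5.73 in LSK-Control.

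In GMP, the mean of 6 B cell markers lay below every control on all 4 deleted arrays, at 4.94 to 5.42 in GMP-Dot, against 5.60 to 6.49 in GMP-Control. The monocyte mean was 8.44 to 9.08 in GMP-Dot, against 7.43 to 8.90 in GMP-Control, and the stem cell mean was 5.10 to 5.40, against 4.42 to 5.12, each with 3 of 4 GMP-Dot arrays above every control. Of these 3 lists 0 markers passed. The eosinophil granule gene Prg2 fell, at -3.20 ± 0.63 (SE) with an adjusted p of 0.0465, the one of 8 eosinophil, basophil and mast cell markers to pass. The part of these markers in the values of the granule genes in GMP was not tested.

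Nkg7 and Cst7 are also genes of cytotoxic lymphocytes. The mean of 9 NK and T cell markers was 3.73 to 4.23 in GMP-Dot, against 3.43 to 4.11 in GMP-Control, and 3.68 to 4.63 in LSK-Dot, against 3.65 to 4.45 in LSK-Control. In control cells 0 of these 9 markers were higher in GMP past the test, and Prf1 was lower at -1.59 ± 0.38 (SE). The marker means lay below the median gene, at 5.54, and low levels cannot be told from background here. The part of such cells in the values of Nkg7 and Cst7 was not tested.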

How the data were processed

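Biotin-labelled RNA of sorted cells was hybridised to Affymetrix arrays, per the labels' protocols. One table deposited by the authors holds the intensities of 45101 probe sets on 21 arrays. RMA is the method in the submitters' processing notes, which name no version; the values themselves showed that they are on a linear, not a log2, scale. No genome build is named in the sources used here, and scan batches and detection calls were not used here.

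The log2 of each intensity was taken, without a pseudocount or filter. Of the probe sets, 34958 had 1 gene symbol, giving 18194 genes, each by its probe set of highest mean. Groups came from the sample titles. Moderated tests of limma (version 3.58.1, R version 4.3.3) compared 4 group means fitted to all arrays. Adjusted p-values are Benjamini-Hochberg values across the 18194 genes, called at 0.05. The fit was tested on simulated data. Promoters came from RefSeq on GRCm38.p6, which was otherwise used for names and gene order alone.

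The members, gene lists, motifs and alternatives were chosen with earlier results of these data known. The rule names all 9 genes, Dot1l, up to 4 members of each other list that passed (else up to 2 by p), the 6 genes with the most similar deviations and the neighbours of the proteases. Numbers shared between cell types in the titles were not used to pair the arrays. Of 9 pairs, 1 had a correlation of deviations over 0.1, with a range from -0.397 to 0.272. Shifts of whole arrays enter these correlations, so they cannot decide whether equal numbers mark one animal. Alternatives were other normalizations, filters, probe sets, variance models, weights, subsets and blocks. Medians with single arrays left out were added after seeing the data.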

Additional observations from a re-analysis of the deposited data

Results flagged for a closer look

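Dixon's test was applied to each of the 9 genes in each of the 4 groups, 36 tests in all, and 3 values stood apart, where chance gives about 1 in 20. Elane on LSK-Dot K1359 had a log2 level of 7.42, far below the next lowest LSK-Dot array at 10.69. Mpo on LSK-Control K1553 had 12.23, below the next lowest control at 12.53. Ms4a3 on GMP-Control K1604 had 11.70, above the next highest control at 11.31.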

How the results depend on the processing

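Over 1548 fits of a gene under an alternative, 1491 kept the direction and the side of the threshold. Many of these fits left out an array outside the groups compared. Such a fit cannot change the log2 fold change, only its error and adjusted p, so the count overstates how far the results were tried. The 8 calls between control GMP and control LSK held in all. After deletion in LSK, the number of the 9 genes called higher, 0 as reported, was 4 with array weights (Mpo, Prtn3, Ctsg and Ms4a3) and 4 with weights estimated gene by gene, added after seeing the data because the default estimate stopped early. It was 0 to 2 with single arrays left out. These weights called 663 and 446 of all genes. They disagreed on GMP-Dot K1190, whose weight was 0.00801 by default and 8.89 gene by gene, so counts with weights depend on how that array is weighted. For the difference of effects the genes called lower, 0 as reported, were 2 and 5 with the same weights, and 0 to 1 with arrays left out. In deleted GMP against deleted LSK, 1 gene was called. It was 3 with the upper quartile as a covariate, 2 without dim genes, 2 with trended robust variances, 5 and 9 with the weights, 0 with only the compared groups, 0 with GMP-Dot K1190 and K1272 averaged, and 0 to 3 with arrays left out. With the K number as a replicate block, random or fixed, it was 0. No other count of the 9 genes called changed with the block, and 0 of 9 GMP arrays correlated best with their own number. The consensus correlation of the random block was -0.177. Whether equal numbers mark one animal remains undecided. Directions turned for 3 genes. Serpinb1a in LSK, -0.65 as reported, was 0.54 with the probe set of highest variance. Mpo in GMP was 0.0230 after quantile normalization, 0.0498 after median centring, 0.142 with array weights, and -0.0826 to 0.0454 with arrays left out (0.0454 and 0.00582 without GMP-Control K1602 and K1604, 0.0179 and 0.0396 without GMP-Dot K1359 and K1421). Ms4a3 in GMP was -0.163 with the upper quartile covariate, and -0.0448 to 0.384 with arrays left out, the lowest without GMP-Dot K1421. The cause was not tested. Of all genes, 0 were called in LSK as reported and 0 to 663 under alternatives, 26 and 9 to 7152 in GMP, 6 and 0 to 4236 for the difference, 2180 and 454 to 7054 for control and 26 and 0 to 1362 for deleted cell types. With no detection calls, a low level cannot be told from background.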
